A study of Homo sapiens with 4 samples.

Results

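The 46 human nuclear receptor genes examined here are the members of the nuclear receptor superfamily listed for this work, which are not the complete superfamily, spread over subfamilies NR0 to NR6, out of 20033 protein-coding genes of GENCODE release 44 on the autosomes, X and Y. A peak was assigned to a gene when it overlapped the gene span widened by 10 kb on each side (its neighbourhood), and it was called a promoter peak when it lay within 3 kb of any annotated transcription start site of that gene. All 46 genes were found in the annotation, and together their neighbourhoods covered 7.29 Mb. The rule used gene names and positions only.

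Binding was measured by ChIP-seq with anti-GFP antibodies in MDA-MB-231 cells, which come from a breast tumour and lack oestrogen receptor alpha and progesterone receptor protein, in 4 libraries, 1 per condition. In every condition the cells carried a bacterial artificial chromosome with Smad2 or Smad3 fused to the LAP tag, which contains GFP, under the gene's own regulatory elements. They were kept under Geneticin as GFP-sorted populations that still had their endogenous Smads. The LAP-Smad2 and LAP-Smad3 lines were each profiled untreated and after 10 ng/mL TGFβ-1 for 2 h. With 1 library per condition no test between conditions could be made, so counts and values are described without p-values, and the Wilson 95% intervals given for shares of peaks cover counting error only. No expression data were used, so neither the identity of the cells nor the expression of any receptor was checked.

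Nuclear receptors are transcription factors, many of which are switched on by small lipid-soluble ligands such as steroids, retinoids, thyroid hormone, vitamin D, fatty acids, oxysterols or bile acids, while others are orphans without a well-established ligand. Most bind DNA through a zinc finger domain that reads the half-site AGGTCA, whereas the glucocorticoid, mineralocorticoid and progesterone receptors read AGAACA. Many non-steroid receptors act as heterodimers with a retinoid X receptor. Unliganded receptors of the retinoid and thyroid group recruit corepressors, and ligand binding exchanges these for coactivators. Smad2 and Smad3 are phosphorylated by the TGFβ receptor, join Smad4 and enter the nucleus, where Smad3 and Smad4 contact the short motif CAGAC, which reads as its complement GTCTG from the other side, and GC-rich sequence. The peaks below show where tagged Smads were located in and around the receptor genes, and carry no information on receptor protein or activity.

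The 2 untreated libraries were treated with reserve throughout, because the names of their deposited peak lists give the opposite Smad to their labels. They are called the untreated libraries labelled LAP-Smad2 and LAP-Smad3, and no direction is drawn from them. The lists held 11266 and 3511 peaks for these 2 libraries and 26828 and 62551 peaks for LAP-Smad2 and LAP-Smad3 after TGFβ-1. The study's methods state a minimum number of reads, but the read depth of each library is unknown. The part of depth in the difference in list length was not tested.

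After TGFβ-1, LAP-Smad2 had 67 peaks at 34 of the 46 receptor genes and LAP-Smad3 had 173 peaks at 40 of them. When the LAP-Smad3 list was cut to the length of the LAP-Smad2 list, it had peaks at 28 members. Which Smad had peaks at more members therefore depended on list length. Among all protein-coding genes 55.9% had a LAP-Smad2 peak and 74.3% had a LAP-Smad3 peak, against 73.9% and 87.0% of the receptor genes. Receptor genes are often long, and a long gene can hold more peaks by its length alone. When every receptor gene was given the share of its own length class of protein-coding genes, of 10 classes, 28.8 members with a LAP-Smad2 peak and 37.3 with a LAP-Smad3 peak were obtained, so the counts of 34 and 40 lay 5.2 and 2.7 genes above what gene length gives. By area the neighbourhoods were not dense in peaks, with 9.20 LAP-Smad2 and 23.7 LAP-Smad3 peaks per Mb, against 11.0 and 25.5 per Mb over the neighbourhoods of all protein-coding genes.

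Promoter peaks were found at 19 receptor genes for LAP-Smad2 (41.3%) and at 22 for LAP-Smad3 (47.8%), where 35.4% and 40.2% of all protein-coding genes had one and gene length gives 18.0 and 19.3 members. The LAP-Smad3 count was 12 within 1 kb of a start site, and 11 when the LAP-Smad3 list was cut to the length of the LAP-Smad2 list, so which Smad had more member promoters depended on these choices. In the untreated libraries the counts were small. The library labelled LAP-Smad2 had 21 peaks at 14 members (30.4%, with 22% of all genes), and the library labelled LAP-Smad3 had 8 peaks, each at a different member (17.4%, with 9.14% of all genes). Gene length gave 13.4 and 4.74 members for these 2 lists. They had promoter peaks at 3 and 4 members, with 5.66% and 4.9% of all genes as background.

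**Figure D1:**
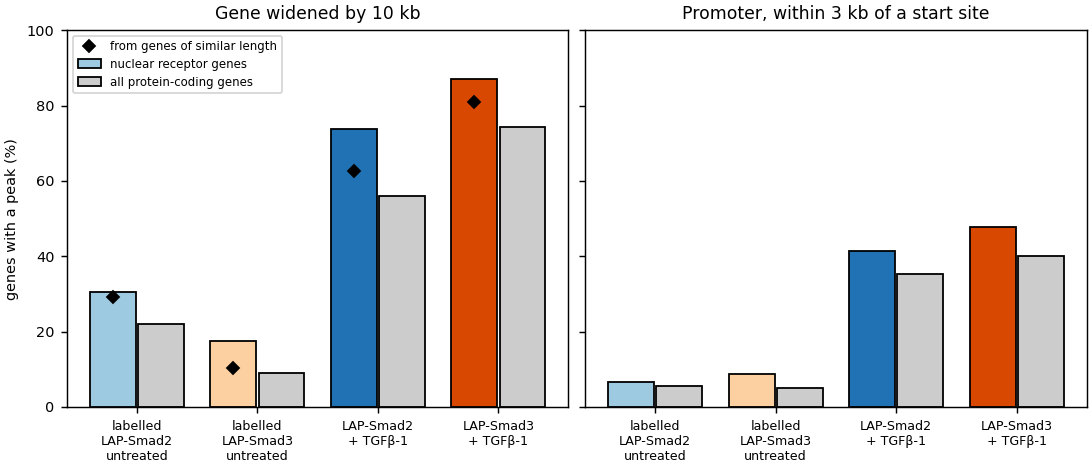
Percentage of the 46 nuclear receptor genes (coloured bars) and of all 20033 protein-coding genes (grey bars) with a peak in the gene widened by 10 kb (left) and with a promoter peak (right) in each of the 4 lists. Diamonds give the percentage obtained from genes of similar length. Coloured bars stand above grey bars in all 4 lists, and the diamonds take up part of each gap on the left.

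The peaks were modest in height. The median fold enrichment, which is the pileup at the summit over the local background, was 3.75 for the 67 LAP-Smad2 peaks and 4.90 for the 173 LAP-Smad3 peaks at receptor genes, against 3.98 and 4.97 over the whole lists. The highest values were 6.05 for LAP-Smad2, in an intron of NR6A1, and 8.83 for LAP-Smad3, in an intron of RXRA. Many LAP-Smad3 peaks had identical scores, and 14 of the 173 shared a fold enrichment of 4.41 with a −log10 q of 3.08, the values of 2925 peaks of the whole list. The order of peaks with low scores is therefore not informative. In what follows a pair of values in parentheses after a peak gives its fold enrichment and then its −log10 q. Repeated sequence was measured by frequent 16-mers, words of 16 bases that occur at least 100 times in hg38, and a window is mostly made of them when they cover more than 50% of its 200 bp.

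Of the 46 members, 30 had peaks of both treated lists, where gene length gives 25.5, and 4 had LAP-Smad2 peaks without LAP-Smad3 peaks, namely THRB, NR1D1, NR2C1 and NR4A3, where gene length gives 3.30. Another 10 had LAP-Smad3 peaks without LAP-Smad2 peaks, namely RARB, NR1D2, RORB, NR1I2, HNF4G, RXRG, NR2F1, PGR, NR4A2 and NR5A2, where gene length gives 11.8. Only NR0B1 and NR0B2, which encode DAX1 and SHP, a pair of receptors without a DNA-binding domain, had no peak in any of the 4 lists, and gene length gives 5.44 members without a treated peak. They are also the shortest members, at 5185 bp and 2487 bp. Of the 67 LAP-Smad2 peaks at members, 13 overlapped a LAP-Smad3 peak (19.4%, interval 11.7% to 30.4%), and the share over the whole list, 24.5%, lies within this interval.

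**Figure D2:**
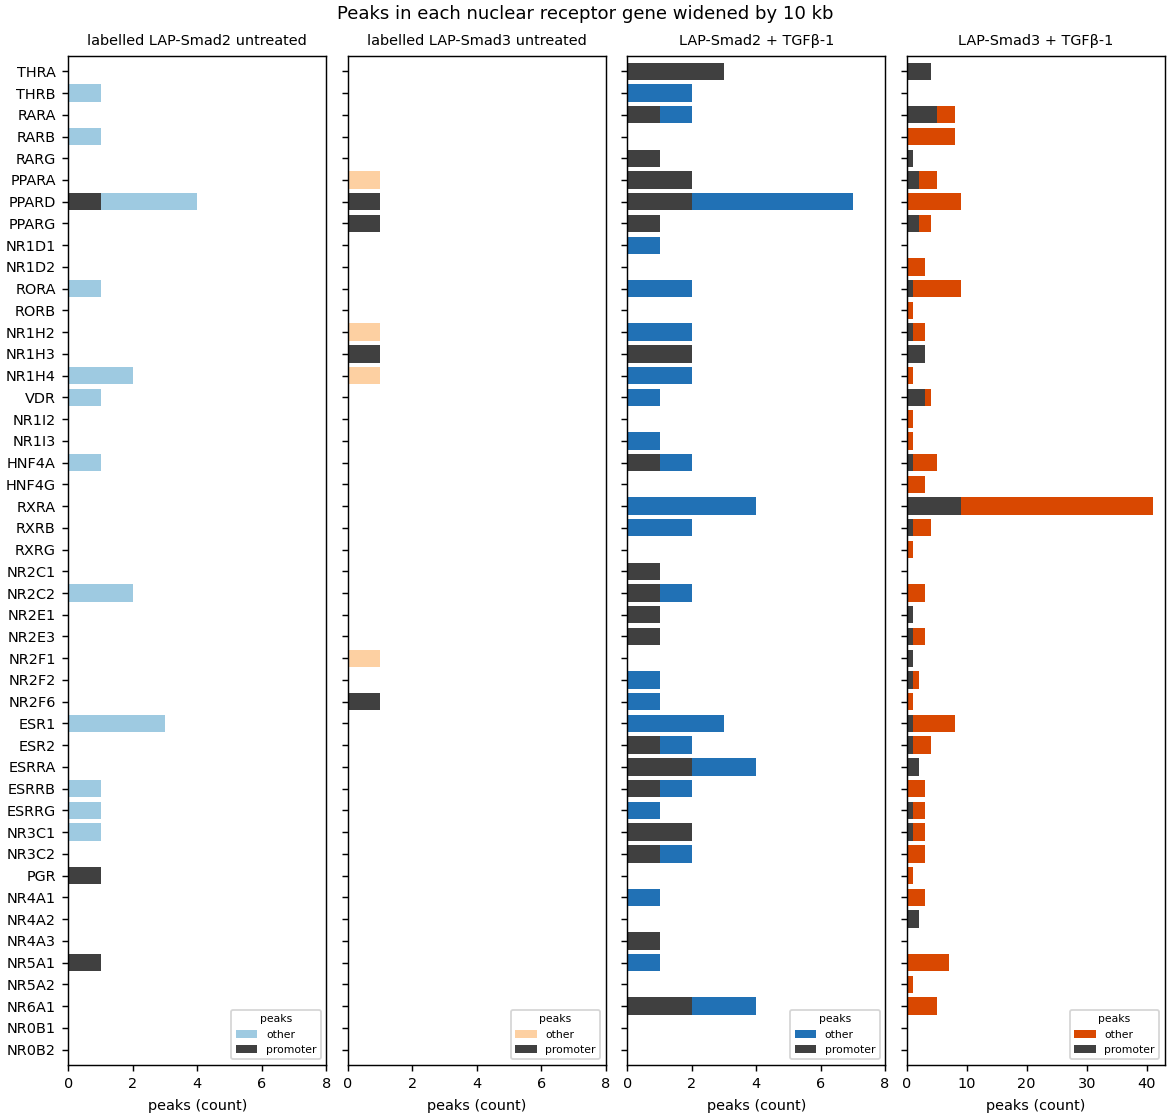
Number of peaks in each nuclear receptor gene widened by 10 kb (rows) in the 4 lists (panels, with a wider axis for LAP-Smad3 after TGFβ-1). Dark bars are promoter peaks and coloured bars are other peaks. RXRA stands out with 41 LAP-Smad3 peaks, while the next highest members, PPARD and RORA, have 9.

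Sequences are shown for 9 members, from the plus strand of hg38, as 100 bases centred on the summit of the member's promoter peak with the highest −log10 q among those whose 100 bases held no annotated untranslated region. They cover the partner receptor RXRA, the 4 members at whose promoters peaks of both treated lists overlapped (RARG, ESR2, NR3C1 and THRA, for which a neighbouring promoter peak is shown), the promoter with the strongest LAP-Smad2 peak (NR6A1), promoters bound by LAP-Smad3 in the retinoid and vitamin D group (RARA, VDR), and an immediate early gene (NR4A3). Capitals mark the receptor half-sites AGGTCA and AGAACA, the Smad motif CAGAC, its palindromic relative GTCTAGAC, and the AP-1 motif, on either strand, and a sequence without capitals holds none of these in its 100 bases.
RXRA, LAP-Smad3 after TGFβ-1, chr9:134381003-134381102: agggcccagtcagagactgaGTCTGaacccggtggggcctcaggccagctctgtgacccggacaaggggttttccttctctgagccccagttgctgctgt
RARA, LAP-Smad3 after TGFβ-1, chr17:40317008-40317107: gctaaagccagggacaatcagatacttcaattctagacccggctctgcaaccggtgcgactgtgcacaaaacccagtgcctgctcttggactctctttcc
RARG, LAP-Smad2 after TGFβ-1, chr12:53213473-53213572: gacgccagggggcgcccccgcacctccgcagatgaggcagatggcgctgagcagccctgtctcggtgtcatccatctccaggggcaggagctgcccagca
THRA, LAP-Smad2 after TGFβ-1, chr17:40070518-40070617: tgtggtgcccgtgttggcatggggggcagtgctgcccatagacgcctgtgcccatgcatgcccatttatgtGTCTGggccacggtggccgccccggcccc
VDR, LAP-Smad3 after TGFβ-1, chr12:47905441-47905540: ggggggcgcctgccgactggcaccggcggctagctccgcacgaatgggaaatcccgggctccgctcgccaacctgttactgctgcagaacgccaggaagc
ESR2, LAP-Smad2 after TGFβ-1, chr14:64338363-64338462: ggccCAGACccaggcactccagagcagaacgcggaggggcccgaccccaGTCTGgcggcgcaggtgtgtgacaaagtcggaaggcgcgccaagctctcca
NR3C1, LAP-Smad2 after TGFβ-1, chr5:143404978-143405077: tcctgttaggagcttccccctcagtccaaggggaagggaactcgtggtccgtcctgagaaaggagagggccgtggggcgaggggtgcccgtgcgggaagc
NR6A1, LAP-Smad2 after TGFβ-1, chr9:124770052-124770151: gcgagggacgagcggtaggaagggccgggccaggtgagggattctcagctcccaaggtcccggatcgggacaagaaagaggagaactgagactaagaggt
NR4A3, LAP-Smad2 after TGFβ-1, chr9:99821443-99821542: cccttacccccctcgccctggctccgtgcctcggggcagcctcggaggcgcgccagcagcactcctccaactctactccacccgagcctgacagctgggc

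The retinoid X receptors are the common heterodimer partners of the retinoid, thyroid, vitamin D and metabolite receptors. RXRA (chr9:134317098-134440585) had no peak in either untreated list, 4 LAP-Smad2 peaks and 41 LAP-Smad3 peaks after TGFβ-1. The mean over protein-coding genes of the same length class was 1.74 LAP-Smad2 and 3.48 LAP-Smad3 peaks. RXRA ranked 2nd of 2003 genes in its class and 16th of all 20033 genes by its number of LAP-Smad3 peaks, and 164th in its class by LAP-Smad2 peaks. The surrounding sequence was also rich in LAP-Smad3 peaks, with 157.5 per Mb within 1 Mb on either side of the neighbourhood against 285.7 per Mb inside it, and 25.5 per Mb around all protein-coding genes. For LAP-Smad2 the density inside (27.9 per Mb) was close to that of the flanks (31.5 per Mb).

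The 41 LAP-Smad3 peaks ran from chr9:134308260 to chr9:134444287, with 33 in introns, and a median of 2396 bp between neighbouring summits. Their fold enrichment ranged from 3.77 to 8.83 (median 4.97), and 9 were promoter peaks. Of these 9, 3 lay around the first start site at −588, +374 and +2473 bp, and the others around start sites inside the gene, where 3 were also within reach of the microRNA gene MIR4669. Only 6 of the 9 remained when start sites of protein-coding transcripts alone were used. The strongest promoter peak, chr9:134380850-134381231 (fold enrichment 7.17, −log10 q 7.63), is the RXRA sequence above, with 1 GTCTG. The strongest peak of all lay in an intron near the 3′ end, at chr9:134435454-134435823 (8.83, 11.1). None of the 41 overlapped a LAP-Smad2 peak, while 10.6% of the whole LAP-Smad3 list did. By −log10 q, with ties included, 18 of the 41 ranked within the first 26828 LAP-Smad3 peaks, the length of the LAP-Smad2 list. The 4 LAP-Smad2 peaks had lower fold enrichments, from 2.55 to 3.24, and lay in the second part of the gene and downstream. No window at RXRA was mostly made of frequent 16-mers.

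**Figure D3:**
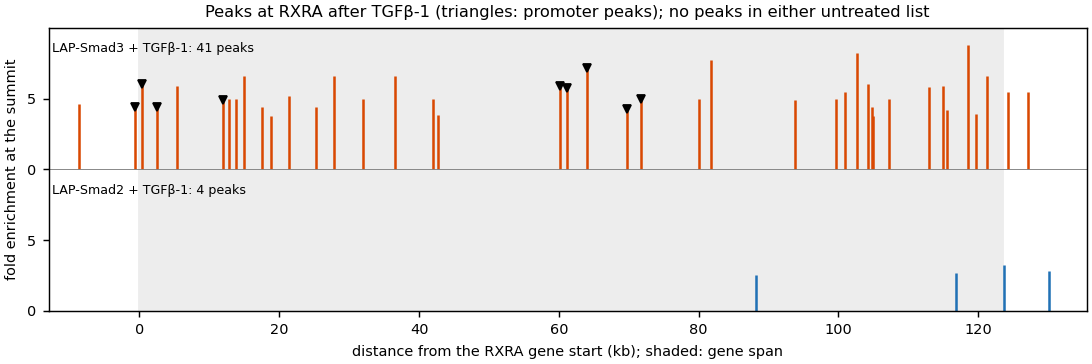
Position and fold enrichment of the peaks at RXRA after TGFβ-1, by distance in kb of the summit from the start of the gene, with LAP-Smad3 above and LAP-Smad2 below. The gene span is shaded and triangles mark promoter peaks. The 41 LAP-Smad3 peaks are spread over the gene and its flanks, and the 4 LAP-Smad2 peaks stand in the second part of the gene and downstream of it.

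RXRB, a gene of 7078 bp, had 2 LAP-Smad2 and 4 LAP-Smad3 peaks, with length class means of 0.66 and 1.45. Its neighbourhood held 73.9 LAP-Smad2 and 147.7 LAP-Smad3 peaks per Mb, against 34.5 and 97 within 1 Mb on either side. The peak with the highest −log10 q was of LAP-Smad2, upstream of the gene at chr6:33204689-33205097 (3.89, 7.13), while the highest fold enrichment, 5.50, was that of a LAP-Smad3 peak downstream. Every peak at RXRB after TGFβ-1 was within 3 kb of a start site of a neighbouring coding gene. For the 2 LAP-Smad2 peaks these were HSD17B8 and RING1. The 1 promoter peak of RXRB, of LAP-Smad3 (3.92, 2.48), lay within 3 kb of a start site of COL11A2. RXRG had 1 LAP-Smad3 peak downstream (7.17, 7.63) and no LAP-Smad2 peak, with length class means of 2.39 and 1.09.

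The retinoic acid, thyroid hormone and vitamin D receptors are the classical partners of the retinoid X receptors. RARA (chr17:40309180-40357643), the retinoic acid receptor alpha, had no untreated peak, 2 LAP-Smad2 peaks and 8 LAP-Smad3 peaks, 5 of them promoter peaks. The strongest, at chr17:40316795-40317257 (6.86, 7.52) and chr17:40320300-40320569 (6.69, 6.98), lay at −1255 and +2150 bp of start sites inside the gene, and the LAP-Smad2 promoter peak at chr17:40318536-40318769 (3.16, 2.96) lay between them. RARB, which spans 910046 bp, had 8 LAP-Smad3 peaks, all in introns and none at a promoter, no LAP-Smad2 peak, and 1 peak in the untreated library labelled LAP-Smad2. RARG had a single peak in each treated list, and these overlapped by 101 bp at chr12:53213159-53213627, within 3 kb of a start site inside the gene, with fold enrichments of 4.27 for LAP-Smad2 and 4.41 for LAP-Smad3.

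THRA, the thyroid hormone receptor alpha, had 3 LAP-Smad2 and 4 LAP-Smad3 peaks, and all 7 were promoter peaks. A LAP-Smad2 peak (3.63, 3.80) and a LAP-Smad3 peak (4.39, 3.78) shared 89 bp near chr17:40063545-40063633, where the start of MED24, which encodes a Mediator subunit, is also within 3 kb. The LAP-Smad3 peak closest to a THRA start, +63 bp, was at chr17:40072035-40072273 (4.90, 3.92). THRB, the beta form, had 2 LAP-Smad2 peaks (4.75 and 4.77) and no LAP-Smad3 peak, and its intron peak was the 1 that also overlapped a peak of the untreated library labelled LAP-Smad2. VDR had 3 LAP-Smad3 promoter peaks and no LAP-Smad2 promoter peak. Around start sites inside the gene, 2 of these were chr12:47904786-47904989 (6.62, 6.60) at +106 bp and chr12:47905320-47905519 (6.07, 5.63) at −380 bp. A further site in an intron of VDR, chr12:47873378-47873649, was listed in both treated lists (4.27 for LAP-Smad2 and 3.32 for LAP-Smad3) and in the untreated library labelled LAP-Smad2 (4.50), and its window was wholly made of frequent 16-mers.

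Of the receptors that sense metabolites, the fatty acid receptor PPARD (chr6:35342558-35428191) had the most LAP-Smad2 peaks of any member, with 7, along with 9 LAP-Smad3 peaks and 4 and 1 peaks in the untreated libraries labelled LAP-Smad2 and LAP-Smad3. It ranked 12th of 2003 genes in its length class by LAP-Smad2 peaks. Next to the start, at +116 bp, a peak of the untreated library labelled LAP-Smad3 (3.68, 6.67) overlapped the LAP-Smad2 peak chr6:35342600-35342949 (2.94, 3.71). Further upstream, at −2032 bp, chr6:35340303-35340748 of the untreated library labelled LAP-Smad2 (8.87, 14.4) overlapped a LAP-Smad2 peak after TGFβ-1 (3.23, 4.74), and 99.5% of its window consisted of frequent 16-mers. No LAP-Smad3 peak lay at the PPARD promoter, while 2 LAP-Smad3 peaks overlapped LAP-Smad2 peaks further down, at chr6:35421840-35422083 in an intron (3.24 for LAP-Smad2 and 4.74 for LAP-Smad3) and downstream of the gene (3.33 and 3.33).

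PPARA, the fatty acid receptor that controls fatty acid oxidation, had 2 promoter peaks in each treated list, and none of them overlapped. Measured from the nearest start site of each, the LAP-Smad2 peaks were at −344 and +250 bp (fold enrichments 3.57 and 3.19) and the LAP-Smad3 peaks at −2624 and +289 bp (4.41 and 4.65). At PPARG, which drives fat cell differentiation, a LAP-Smad2 peak (3.20, 2.75) and a peak of the untreated library labelled LAP-Smad3 (3.33, 2.71) lay side by side at +367 and −153 bp of start sites, and the 2 LAP-Smad3 promoter peaks (3.71 and 3.44) were in windows wholly made of frequent 16-mers. The oxysterol receptor gene NR1H3 (LXR alpha) had 2 LAP-Smad2 and 3 LAP-Smad3 peaks, all promoter peaks, and 3 of these 5 were also within 3 kb of the start of MADD or ACP2. NR1H2 (LXR beta) had 1 LAP-Smad3 promoter peak (5.33, 4.72), which was also within 3 kb of a start site of NAPSA. Downstream of NR1H2, a site at chr19:50391088-50391569 was in 3 lists. Its fold enrichments were 4.55 for LAP-Smad2, 5.31 for LAP-Smad3 and 4.39 for the untreated library labelled LAP-Smad3. The bile acid receptor NR1H4 (FXR) and the xenobiotic receptors NR1I2 (PXR) and NR1I3 (CAR) had no promoter peaks.

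The steroid receptors mostly had peaks in introns. ESR1 (chr6:151656691-152129619), oestrogen receptor alpha, had 3 peaks in the untreated library labelled LAP-Smad2, 3 LAP-Smad2 and 8 LAP-Smad3 peaks, with length class means of 2.52 and 6.35 for the treated lists. Its 1 promoter peak, of LAP-Smad3 at chr6:151943143-151943411 (6.21, 7.58), lay in a window wholly made of frequent 16-mers, and all 14 peaks of the 4 lists at ESR1 had windows mostly made of them. At ESR2, oestrogen receptor beta, peaks of both Smads overlapped by 87 bp just upstream of the start, chr14:64338238-64338567 for LAP-Smad2 (4.04, 4.05) and chr14:64338038-64338324 for LAP-Smad3 (5.87, 5.40), and the 100 bases printed above for LAP-Smad2, which lie outside the overlap, hold CAGAC on each strand. The glucocorticoid receptor gene NR3C1 had 2 LAP-Smad2 promoter peaks, of which chr5:143404943-143405149 (3.85, 5.01) shared 86 bp with the LAP-Smad3 peak chr5:143405064-143405322 (4.82, 3.76). The strongest peak at NR3C1 was a LAP-Smad3 peak in an intron, chr5:143333096-143333303 (6.83, 7.19). NR3C2, the mineralocorticoid receptor gene, had a LAP-Smad2 promoter peak (4.75, 5.92) whose window had a GC content of 24%, the lowest of all 67. PGR, which encodes the progesterone receptor, had a promoter peak in the untreated library labelled LAP-Smad2 (5.24, 4.89) and after TGFβ-1 a single LAP-Smad3 peak downstream (4.08, 3.80).

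The orphan receptors made up 24 of the 46 members, with 26 LAP-Smad2 peaks at 16 of them and 58 LAP-Smad3 peaks at 19. NR6A1 (germ cell nuclear factor) held the LAP-Smad2 peaks with the highest −log10 q at any member, chr9:124769922-124770352 at +1150 bp of its start (5.49, 13.9) and an intron site in frequent 16-mers (6.05, 13.5). A second promoter peak lay at chr9:124770775-124771246 (4.35, 8.10), and another peak upstream of the gene (4.57, 8.68) was within 3 kb of the start of OLFML2A. None of these 4 overlapped any of the 5 LAP-Smad3 peaks at NR6A1, which had no promoter peak among them. The neighbouring gene NR5A1 (SF-1, a regulator of steroid hormone synthesis) had 7 LAP-Smad3 peaks and 1 LAP-Smad2 peak, and its 2 LAP-Smad3 peaks upstream of the start were also within 10 kb of NR6A1, so they are counted at both genes.

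ESRRA, the oestrogen-related receptor alpha and a regulator of mitochondrial genes, is a gene of 11247 bp. Its neighbourhood held 4 LAP-Smad2 peaks, which placed it 12th of 2003 genes in its length class, and 2 LAP-Smad3 peaks. Of the 4, 1 lay upstream of the gene, also within 3 kb of the start of CATSPERZ, and 1 downstream. The LAP-Smad2 promoter peak of ESRRA at +885 bp was chr11:64307231-64307430 (3.37, 4.21). Its 3 other promoter peaks, 1 of LAP-Smad2 and 2 of LAP-Smad3, either were also within 3 kb of the starts of PRDX5 and TRMT112 or lay in frequent 16-mers. NR2C2 (testicular receptor 4) had a LAP-Smad2 peak at +178 bp of its start, chr3:14947747-14948067 (5.12, 8.10), without a LAP-Smad3 promoter peak, and NR2C1 (testicular receptor 2) had 1 LAP-Smad2 peak at −187 bp (3.56, 2.95) and none of LAP-Smad3. The COUP-TF genes NR2F1 and NR2F2 each had 1 LAP-Smad3 promoter peak (both 4.41, 3.08) and no LAP-Smad2 promoter peak. HNF4A, a liver transcription factor, had 1 promoter peak of each list at different start sites (4.02 for LAP-Smad2 and 5.52 for LAP-Smad3).

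The remaining orphan receptors with promoter peaks, apart from the NR4A genes below, had 1 per list. NR2E1 (TLX, of neural stem cells) had a LAP-Smad2 peak at −1456 bp of a start site, chr6:108174536-108174760 (4.19, 4.53), and a LAP-Smad3 peak at −646 bp, chr6:108165270-108165481 (4.41, 3.17), which was also within 3 kb of the start of OSTM1. NR2E3, the photoreceptor-specific receptor, had a LAP-Smad2 peak (4.67, 5.81) and a LAP-Smad3 peak (4.66, 5.03) that did not overlap, both in windows mostly made of frequent 16-mers. The oestrogen-related receptor gene ESRRB had a LAP-Smad2 peak at −128 bp of a start site, chr14:76439399-76439629 (3.56, 2.95), and ESRRG had a LAP-Smad3 peak in frequent 16-mers at −2405 bp (5.58, 5.02). NR2F6 (EAR2) and NR5A1 had promoter peaks in untreated libraries alone, at +684 bp in the library labelled LAP-Smad3 (3.83, 4.74) and at +1993 bp in the library labelled LAP-Smad2 (5.29, 4.68). The RORA promoter peak, of LAP-Smad3, was the weakest LAP-Smad3 peak at any member (2.71, 1.84).

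The NR4A genes are immediate early genes that respond within minutes to many stimuli, and the 3 had different patterns. NR4A1 (NUR77) had 1 LAP-Smad2 and 3 LAP-Smad3 peaks, none at a promoter. NR4A2 (NURR1) had 2 LAP-Smad3 promoter peaks, chr2:156328348-156328547 (4.82, 3.76) at −33 bp of a start site and chr2:156333824-156334034 (4.26, 3.08), and no LAP-Smad2 peak. NR4A3 (NOR1) had a single LAP-Smad2 peak at −374 bp of its start, chr9:99821329-99821632 (3.75, 4.04), and no LAP-Smad3 peak. The difference between the Smads at these genes was not tested, as each list came from 1 library. Of the clock receptors, NR1D1 (REV-ERB alpha) had 1 LAP-Smad2 peak upstream and NR1D2 (REV-ERB beta) had 3 LAP-Smad3 peaks. RORA, which spans 741019 bp, had 2 LAP-Smad2 and 9 LAP-Smad3 peaks, all in windows mostly made of frequent 16-mers. The length class means for RORA were 2.52 and 6.35.

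The number of peaks followed gene length only loosely. Spearman's rho between gene length and peaks was 0.25 for LAP-Smad2 and 0.44 for LAP-Smad3 over the 46 members, with 0.30 and 0.39 over all protein-coding genes, where long genes also share their neighbourhoods with other genes. The 5 members with the most peaks held 32.8% of the LAP-Smad2 and 42.9% of the LAP-Smad3 peaks at members, and the median member had 1 and 3. The ratio of LAP-Smad3 to LAP-Smad2 peaks at the members was 2.58, against 2.33 over the whole lists. With the LAP-Smad3 list cut to 26828 peaks by score, which makes the lists equal in length, the ratio at members was 0.955. The cut fell among peaks with the same −log10 q of 4.72. Those of equal score were kept by chromosome and position, so this value can depend on that order. With the full lists but without RXRA the ratio was 2.10, so this 1 gene carried it from below to above that of the lists.

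**Figure D4:**
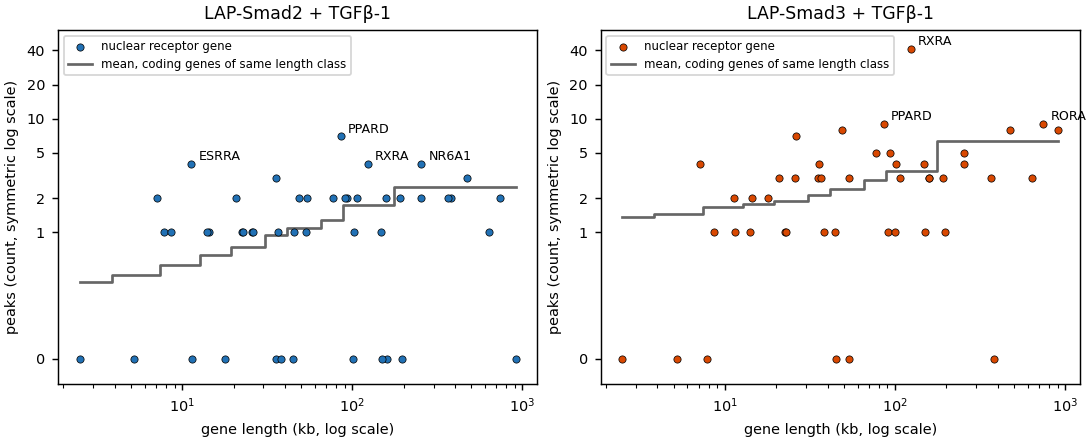
Number of peaks against gene length for the 46 nuclear receptor genes after TGFβ-1 (points), for LAP-Smad2 (left) and LAP-Smad3 (right), with the mean of all protein-coding genes in the same length class (line). Both axes are logarithmic, with a linear part below 1 peak. RXRA, with 41 LAP-Smad3 peaks, is far above the class mean of 3.48, and PPARD, with 7 LAP-Smad2 peaks, is the highest on the left.

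After treatment 13 sites at 12 members were in both lists. Besides the promoters of THRA, RARG, ESR2 and NR3C1, these were 2 sites at PPARD and 1 each at RORA, NR1H2, VDR, NR1I3, NR2C2, ESR1 and ESRRB. Of the 13 sites, 6 had windows mostly made of frequent 16-mers. The summits of the overlapping peaks were 11 to 251 bp apart, with a median of 106 bp. Seen from LAP-Smad3, 13 of 173 peaks overlapped LAP-Smad2 (7.51%, interval 4.44% to 12.4%), and over the whole lists 24.5% of the LAP-Smad2 peaks and 10.6% of the LAP-Smad3 peaks overlapped the other list. Promoter peaks of both lists were found at 12 members (26.1%), where gene length gives 9.56 and 18.2% of all protein-coding genes had both. At 8 of these 12 members the peaks did not overlap. The same share over all protein-coding genes was not computed, so whether this count is particular to the receptor genes is unknown. Of the 21 member peaks in the untreated library labelled LAP-Smad2, 5 overlapped a LAP-Smad2 peak after TGFβ-1 and 5 a LAP-Smad3 peak, with 33.3% and 39.9% over that whole list. In the untreated library labelled LAP-Smad3 the counts were 2 and 1 of 8 peaks, with 71.3% and 19.4% over its list.

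The half-site of the receptors themselves, AGGTCA on either strand, was present in the 200 bp window around the centre of 13 of 67 LAP-Smad2 peaks at members (19.4%, interval 11.7% to 30.4%) and of 32 of 173 LAP-Smad3 peaks (18.5%, interval 13.4% to 24.9%). Over the whole lists the shares were 14.0% and 27.3%. Most of these matches at LAP-Smad3 peaks lay in frequent 16-mers, 22 of 34, as did 73.9% of those in the whole list. The Smad motif CAGAC was in 34.3% of the LAP-Smad2 windows (interval 24.1% to 46.3%, list 35.0%) and 42.8% of the LAP-Smad3 windows (interval 35.6% to 50.2%, list 34.5%). RXRA contributed 21 of these 74 LAP-Smad3 windows, and without it the share was 40.2% (interval 32.2% to 48.7%). The palindrome GTCTAGAC, which contains no CAGAC and joins a pair of GTCT half-sites, was in 1 LAP-Smad3 window and no LAP-Smad2 window, and AGAACA was in 4 LAP-Smad2 windows and 10 LAP-Smad3 windows (5.97% and 5.78%, with 3.50% and 6.01% over the lists).

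In RefSeq promoters of GRCh38.p14, 300 bp windows around start sites, 41 of the 46 members were matched, with 96 windows. AGGTCA was in 16.7% of these windows, against 13.8% of all 35116 promoter windows, and CAGAC in 46.9% against 45.3%. A match describes the letters in the window and is no sign of binding.

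The windows of LAP-Smad2 peaks at members had a mean GC content of 66.0% ± 8.54 (SD over 67 windows) and those of LAP-Smad3 59.2% ± 6.74 (SD over 173 windows), near the 63.8% and 58.5% of the whole lists. Promoter windows had 67.7% and 60.9%. The share of windows mostly made of frequent 16-mers was 26.9% for LAP-Smad2 and 34.1% for LAP-Smad3, with 43.7% and 50.9% over the whole lists. At promoters 2 of 27 LAP-Smad2 peaks and 7 of 45 LAP-Smad3 peaks were of this kind.

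In the untreated library labelled LAP-Smad2 most peaks were in repeated sequence. Of its 21 peaks at members, 19 had windows mostly made of frequent 16-mers (90.5%, interval 71.1% to 97.3%), as had 79.5% of its whole list, and 5 windows, at ESRRB, ESRRG, HNF4A, NR3C1 and RORA, had a GC content between 0% and 4%. Their fold enrichments were 6.69 to 12.04, and those at ESRRB, HNF4A, RORA and ESRRG were the 4 highest at any member. In the whole list 6.38% of windows had a GC content of at most 5%. The whole lists of the library labelled LAP-Smad3 and of LAP-Smad2 after TGFβ-1 held no such window, so none could occur at members. In LAP-Smad3 after TGFβ-1 such windows made up 0.15% of the whole list. At members 1 occurred there, at ESRRG (4.41, 3.08), where it overlapped the peak of the library labelled LAP-Smad2. The part of repeated sequence in these peaks was not tested.

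**Figure D5:**
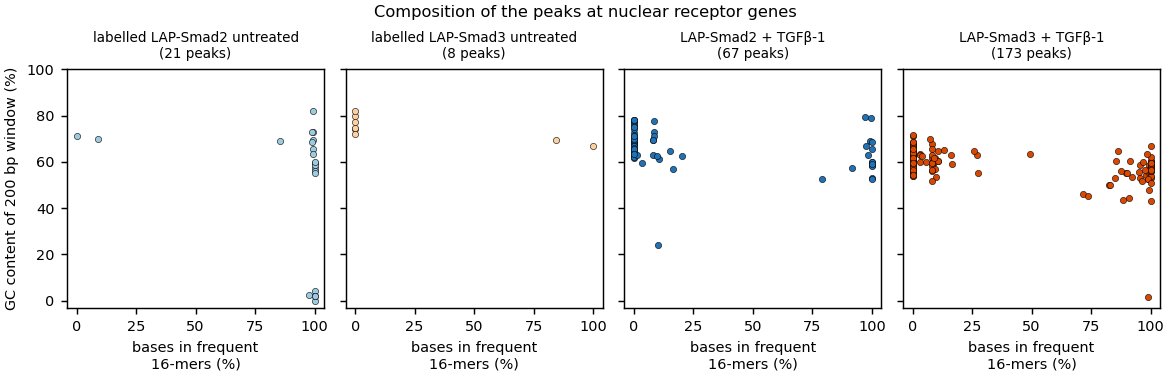
GC content of the 200 bp window against the percentage of its bases in frequent 16-mers for every peak at a nuclear receptor gene in the 4 lists (panels). The library labelled LAP-Smad2 untreated has 19 of 21 windows on the right and 5 at the bottom, while most windows of the treated lists are on the left, between about 50% and 80% GC.

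Receptors act through coregulators, and 20 of their genes were examined in the same way. LAP-Smad2 had peaks at 15 and LAP-Smad3 at 17 of the 20 after TGFβ-1, where gene length gives 13.8 and 17.5. Those with promoter peaks of both treated lists included PPARGC1B, HDAC3, TBL1X, GPS2 and SIN3A, and 18.2% of all protein-coding genes had both. The 52 forkhead genes, another family of transcription factors, had a LAP-Smad2 peak at 29 and a LAP-Smad3 peak at 37, where gene length gives 25.1 and 34.2, so the counts were above those from gene length by 3.9 and 2.8 genes, compared with 5.2 and 2.7 for the nuclear receptors. Promoter peaks of LAP-Smad2 and LAP-Smad3 were each at 20 forkhead genes (38.5%), against 41.3% and 47.8% of the receptor genes. Among all protein-coding genes the shares were 35.4% and 40.2%.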

How the data were processed

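Peaks of 4 anti-GFP ChIP-seq libraries of MDA-MB-231 cells, 1 per condition, were analysed as deposited. Per the study's methods the authors used Bowtie2 for alignment to hg38 and MACS2, with an extension of reads to 200 bp and a cut-off of 0.05 on the q-value, for peak calling in each library. Versions, control libraries and the role of bedtools are not given in the sources used here. The values deposited by the authors are fold enrichment (a ratio), −log10 values of both p and q, a score and a summit position for each peak. Groups followed the labels, and the names of the untreated lists conflict with them.

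From these, peaks were assigned to genes of GENCODE release 44 in Python 3.11.15 (pandas 2.3.3, pysam 0.24.0) with a minimum overlap of 1 bp. For the counts expected from gene length, each member was given the share of protein-coding genes with a peak in its own length class, of 10 classes. These shares were summed over the members. Motifs, GC content and frequent 16-mers were taken from the 200 bp around each peak centre. The gene assignment and overlap steps passed 7 of 7 checks on simulated data.

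Every member is given by its counts. Single peaks are described for members with a promoter peak and for the 5 members with the most peaks in each treated list, and single peaks of other members were added after their values were seen. The members, the coregulator list and the forkhead comparison were chosen with earlier results of these data known. The values of 1 coregulator gene and the sequences of 3 peaks are not reported here. Depth is unknown, so no depth-based precision can be given. Alternatives covered gene widening, q-value, promoter distance, transcripts, overlap, list length, window position and length classes, and frequent 16-mers and RXRA were added after seeing the data.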

Additional observations from a re-analysis of the deposited data

How the results depend on the processing

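Of 71 values recomputed under 12 settings, 60 stayed close to the reported value and 11 did not, where close means within 1.5 times for counts, within the 95% interval for shares and the ratio, and within 1 SD for GC content. With genes widened by 50 kb, members with a peak in the untreated library labelled LAP-Smad2 rose from 14 to 24, and without widening those in the library labelled LAP-Smad3 fell from 8 to 4. Within 1 kb of a start site, members with a promoter peak numbered 1 in the untreated library labelled LAP-Smad2 and 12, in place of 22, for LAP-Smad3 after TGFβ-1. With the longer treated list cut to 26828 peaks by score, LAP-Smad3 had promoter peaks at 11 members, the ratio of LAP-Smad3 to LAP-Smad2 peaks was 0.955, and 7.46% of LAP-Smad2 peaks at members overlapped LAP-Smad3. Peaks of equal score at the cut were kept by chromosome and position, so values under this setting can depend on that order. With summits within 100 bp, the overlaps were 7.46% (LAP-Smad2) and 2.89% (LAP-Smad3). Without windows mostly made of frequent 16-mers, the untreated library labelled LAP-Smad2 kept peaks at 2 members, and AGGTCA was in 9.65% of the LAP-Smad3 windows. Under that setting, members with a peak after TGFβ-1 numbered 27 for LAP-Smad2 and 28 for LAP-Smad3, in place of 34 and 40, which counted as close. Apart from the settings that remove peaks, windows or distance by construction, the cause was not tested. The planned removal of soft-masked repeats was not run, because the reference held no soft-masking, and frequent 16-mers took its place. No paired analysis was possible because each condition had 1 library, and leaving out a replicate was not possible either. The unknown depth of each library limits any comparison of list lengths.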
